A study of Mus musculus with 6 samples.

Results

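The 10 genes described here are Trim6, Trim34a, Trim5, Trim12a, Trim34b, Trim12c, Trim30b, Trim30c, Trim30a and Trim30d, which lie next to each other on mouse chromosome 7 between positions 104218795 and 104507853 (GRCm38), a stretch of 289.1 kb. They are 10 of the 18238 genes in the deposited tables. The cluster was chosen by the counts of Trim12a, which were near 0 in all artemisinin libraries, and its other 9 genes by their place beside it in the same family. What is said of their difference between the groups is therefore a description, and no p-value is given for any of them. The study sequenced RNA of lung cancer mice as 6 libraries, 3 in each of 2 groups. The mice of the artemisinin group received artemisinin, a plant sesquiterpene lactone used against malaria, and the mice of the model group carried the cancer without the drug. The cell type field of the labels reads lung cancer for both groups. Not given in the sources used here are strain, age, sex, the way the cancer was induced, dose and duration. The 6 libraries held between 25566173 and 34745497 counts. All 10 genes passed the filter on low counts.

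TRIM proteins carry a RING finger that acts as a ubiquitin ligase, a B-box and a coiled coil, and many end in a B30.2 (SPRY) domain that binds targets. The founding example of this branch, primate TRIM5alpha, binds the capsid of incoming retroviruses. In mice the corresponding chromosomal region has expanded by duplication into the Trim12 and Trim30 genes. Several of them are known to be induced by interferon in immune cells.

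The gene starts are shown because they let the paralogs be told apart and grouped without any expression value. RefSeq (GRCm38.p6) gave 11 promoter windows for the 10 genes, of 300 bases each, from 250 before to 50 after the annotated start, with 2 starts for Trim30a. In 7 of the 11 windows, from 6 of the 10 genes, GAAA was followed by any 2 bases and again GAAA, on either strand. This is the core of the interferon-stimulated response element and occurred in 3.44% of all 32851 windows in the reference. Several of the 7 windows are near copies of one another, so they are not independent cases. The start used for a window is not always the outer end of the gene span given further below. For Trim5 the printed 100 bases lie wholly inside its span, which ends at 104288254. The lines below give the 100 bases from 70 before to 30 after the start used for the window. They run 5′ to 3′ on the strand of the gene, with the match in capitals.
Trim5 (chr7:104288077-104288176, minus strand): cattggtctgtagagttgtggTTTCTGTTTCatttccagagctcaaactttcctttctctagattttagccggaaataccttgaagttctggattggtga
Trim12a (chr7:104315466-104315565, minus strand): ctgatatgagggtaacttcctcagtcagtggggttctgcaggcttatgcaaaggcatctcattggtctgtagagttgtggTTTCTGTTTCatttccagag
Trim12c (chr7:104353320-104353419, minus strand): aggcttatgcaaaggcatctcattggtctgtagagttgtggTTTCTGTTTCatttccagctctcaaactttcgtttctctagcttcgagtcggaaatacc
Trim30a (chr7:104465164-104465263, minus strand): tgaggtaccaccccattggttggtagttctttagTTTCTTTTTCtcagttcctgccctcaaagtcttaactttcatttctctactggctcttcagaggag
Trim30d (chr7:104507820-104507919, minus strand): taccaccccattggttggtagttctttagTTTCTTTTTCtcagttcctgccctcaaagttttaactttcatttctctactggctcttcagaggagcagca
Trim34a (chr7:104244387-104244486, plus strand): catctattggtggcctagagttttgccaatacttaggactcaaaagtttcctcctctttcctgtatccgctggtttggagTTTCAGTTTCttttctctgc

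Trim5, Trim12a and Trim12c carried 1 form of the match, TTTCTGTTTC, and Trim30a and Trim30d another, TTTCTTTTTC. The 300-base windows of Trim5 and Trim12a were identical at all 241 bases that aligned between them, since the annotated starts sit at different places in the same duplicated stretch. The windows of Trim12a and Trim12c were identical at 95.0% of 260 aligned bases, and those of Trim30a (upstream start) and Trim30d at 93.6% of 295. The windows of Trim6, Trim34b, Trim30b and Trim30c held no such match, and that of Trim30c held TTC and GAA with any 3 bases between them (TTCTTAGAA, the palindromic form of a STAT site), as 8.30% of all windows do. No window of the 10 genes held GGGAA and TTCC with any 1 base between them, an NF-kB-type sequence found in 0.341% of all windows. These matches are letters in a window and were not tested as binding sites.

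The coding sequences gave blocks that the start windows did not all share. In GENCODE M21 the longest coding sequence had between 1455 and 1539 bases in 8 of the 10 genes. It was shorter in Trim12a, with 891 bases (297 codons, stop codon left out) in 6 coding exons, and in Trim30b, with 609 bases. Trim12a was identical to Trim5 at 97.1% and to Trim12c at 96.4% of its 891 aligned coding bases, and Trim5 to Trim12c at 96.6% of 1491. Trim34a and Trim34b were identical at 98.2% of 1451 coding bases but at only 64.7% of the 102 bases that aligned between their start windows. Trim30a and Trim30d were identical at 90.2% of 1488 bases, and Trim30a and Trim30b at 86.2% of 588.

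**Figure D1:**
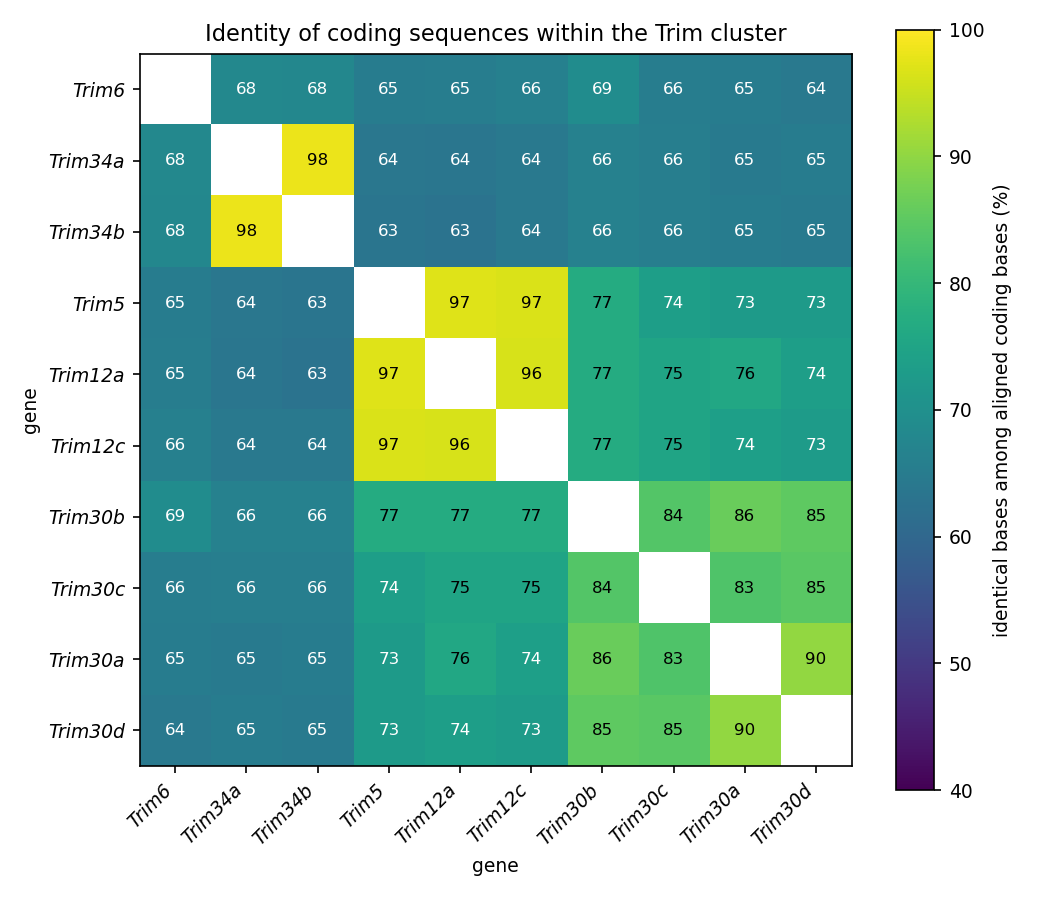
Percent of identical bases among aligned coding bases for each pair of the 10 genes, with genes on both axes and gaps left out. Trim5, Trim12a and Trim12c form 1 block at 96.4% to 97.1%, Trim34a and Trim34b a second at 98.2%, and the 4 Trim30 genes a looser block.

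Such identity bears on the counts, because a short read can fit several paralogs. Cut into 100-base words, 93.8% of the words of the Trim12a transcripts occurred in no other gene's transcripts of GENCODE M21, 91.9% of those of Trim12c and 88.3% of those of Trim5. With 50-base words these shares were 81.6%, 67.0% and 63.7%. Trim34b was the least distinct, with 69.5% of its 100-base words found in no other gene, and all shared words of Trim34b were shared with Trim34a. Trim6 shared no word with any other gene at either length. The gene models behind the counts need not be those of GENCODE M21. The gene lengths implied by the FPKM were 5598, 4914 and 2771 bases for Trim34b, Trim30c and Trim30b. Their GENCODE transcripts gave 1848, 1617 and 7490 different 100-base words, so these shares may not hold for the counted stretches. For the read length and the treatment of reads with several matches, the sources used here give nothing. The counts of Trim34a and Trim34b, and of Trim5, Trim12a and Trim12c, may therefore be split between paralogs or be incomplete. Trim30b lies wholly within the RefSeq span of Gm38525 on the same strand (chromosome 7, 104354559 to 104369881), so their reads may also not have been told apart.

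Levels were compared between genes as FPKM, the deposited values scaled by gene length. Trim30a, whose protein is known to dampen NF-kB signalling downstream of Toll-like receptors through loss of TAB2 and TAB3, had the highest level of the 10 in every library, at 13.5 ± 1.47 FPKM in the model and 21.6 ± 3.03 FPKM with artemisinin (SD, n = 3 per group, as throughout). In the model Trim12c followed at 9.18 ± 1.04 FPKM, then Trim34a at 7.45 ± 1.70, Trim12a at 5.96 ± 0.641, Trim5 at 5.34 ± 0.961 and Trim30d at 5.02 ± 0.335 FPKM. The ranges of neighbours in this order overlapped from Trim12c down to Trim30d. Genes further apart in it did not all overlap, since Trim12c lay wholly above Trim12a, Trim5 and Trim30d, and Trim34a wholly above Trim30d. Trim6 and Trim34b, at 0.717 ± 0.0818 and 0.704 ± 0.209 FPKM, overlapped each other and stood below those 5, and Trim30b and Trim30c, at 0.171 ± 0.146 and 0.108 ± 0.0792 FPKM, came last. With artemisinin Trim34a was second at 8.55 ± 4.03 FPKM, with a range that overlapped that of Trim30d. Trim30d, Trim5 and Trim12c came next with overlapping neighbours, Trim12c at 3.76 ± 0.327 FPKM, and Trim12a was last.

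The groups were compared gene by gene in normalised CPM, which are counts scaled to library size with TMM factors. A gene was called where the quasi-likelihood test of edgeR over all 15242 tested genes gave it a Benjamini-Hochberg adjusted p below 0.05. Of the 10 genes 2 were called, both lower (Trim12a and Trim12c), where 4.47% of all tested genes were called, 2.30% lower and 2.17% higher. DESeq2 called those 2 lower and also Trim30a and Trim30b higher, where it called 14.1% of the 16243 genes to which it gave an adjusted p. In edgeR 4 of the 10 had an unadjusted p under 0.05, as 24.7% of all tested genes did. The median log2 fold change of the 10 was 0.39, with 8 above 0 and 2 below, against 0.04 over all tested genes. In 4 of the 10 the groups did not overlap, 2 lower and 2 higher, where this held for 33.6% of all tested genes, 17.3% in the lower and 16.3% in the higher direction. Because the genes were picked with this contrast in view, nothing is read from these counts.

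**Figure D2:**
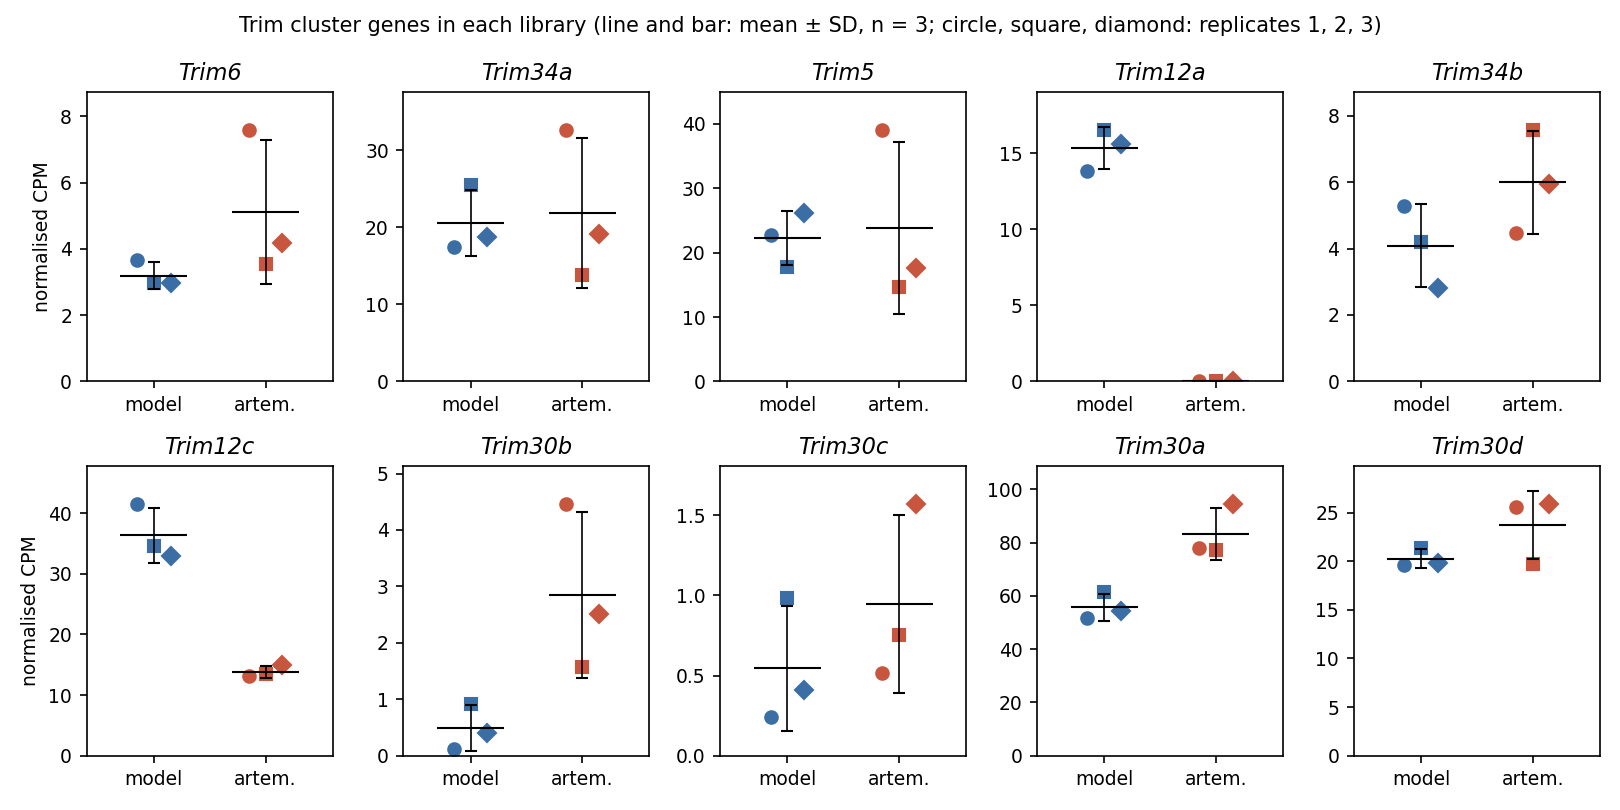
Normalised CPM of each gene (y axes, each from 0) in the 3 model and 3 artemisinin libraries (x axes), in chromosomal order; symbols are replicates, lines and bars the mean ± SD. Trim12a is at 13.8 to 16.5 in the model and at most 0.0286 with artemisinin, Trim12c is lower and Trim30a and Trim30b are higher without overlap, and artemisinin replicate 1 stands highest for Trim6, Trim34a and Trim5.

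Trim12a (Entrez gene 76681; chromosome 7, 104299893 to 104315558, minus strand) encodes a TRIM protein of the Trim5 type. Its counts were 456, 537 and 496 in model replicates 1 to 3 and 0, 0 and 1 in artemisinin replicates 1 to 3. The model libraries lay close together, with a coefficient of variation of 9.05% between 13.8 and 16.5 normalised CPM, and the artemisinin libraries were at or under the 3 counts that a result of 0 allows, which are 0.117 CPM in the smallest library. The single artemisinin count against 1489 model counts gave a ratio of rates per library total of 1342, and counting error alone put it between 240 and 53022 (exact binomial 95% bounds). The ratio was 964 without artemisinin replicate 1 and 867 without artemisinin replicate 2. Without artemisinin replicate 3 no count was left, and with 3 counts taken as the floor for both remaining libraries together the level was at least 284-fold lower. Without 1 of the model replicates the ratio lay between 1275 and 1420.

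No other gene of the 18238 had this pattern. Searched for at most 3 counts in 1 group together and at least 100 counts in every library of the other, the table gave Trim12a alone among genes off with artemisinin and 0 genes off in the model. This is a description of the gene by which the cluster was chosen. In bulk tissue, fewer cells that express a gene and less of its RNA per cell cannot be told apart.

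Trim12c (Entrez gene 319236; 104338754 to 104353358, minus strand), whose protein is reported to cooperate with TRAF6 in interferon and NF-kB induction, had 41.5, 34.6 and 32.9 normalised CPM in model replicates 1 to 3 and 13.1, 13.5 and 14.9 in artemisinin replicates 1 to 3. Every artemisinin library was below every model library, and the artemisinin values were the least spread of the 10 genes, with a coefficient of variation of 6.88%. The log2 fold change was −1.39 ± 0.16 (SE), 2.63-fold lower with artemisinin, and edgeR no longer called it without model replicate 1 or model replicate 3. Here and below, SE is the size of the log2 fold change divided by the square root of the F statistic of the edgeR test. It was worked back from that test and is not a separately fitted error. Trim5 (104263386 to 104288254, minus strand), 97.1% identical to Trim12a in coding bases, had 22.7, 17.8 and 26.2 normalised CPM in the model group and 39.1, 14.7 and 17.6 with artemisinin. The Trim5 groups overlapped, with artemisinin replicate 1 above and the other two artemisinin libraries below every model library. Its log2 fold change of 0.09 ± 0.37 (SE) turned to −0.46 without artemisinin replicate 1.

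Added up, Trim12a and Trim12c held 51.7 ± 3.42 normalised CPM in the model group and 13.8 ± 0.969 with artemisinin. The artemisinin sum was thus smaller than the model level of Trim12c alone, and Trim12c did not stand higher where Trim12a was missing. The 10 genes together held 178.8 ± 6.49 normalised CPM in the model group and 181.3 ± 26.9 with artemisinin, a difference far within the spread. The makeup of that sum differed: Trim12a and Trim12c gave 31.5% ± 2.09 of the summed FPKM in the model and 7.69% ± 1.42 with artemisinin, and the 4 Trim30 genes 39.0% ± 1.76 and 59.2% ± 8.09. Shares of a sum are tied to each other, so a lower share of 1 gene raises the others. Trim12a, by which the cluster was chosen, gave 12.4% in the model and 0.00782% with artemisinin, so part of these differences follows from that choice. Trim12c gave 19.1% ± 2.84 and 7.68% ± 1.41.

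**Figure D3:**
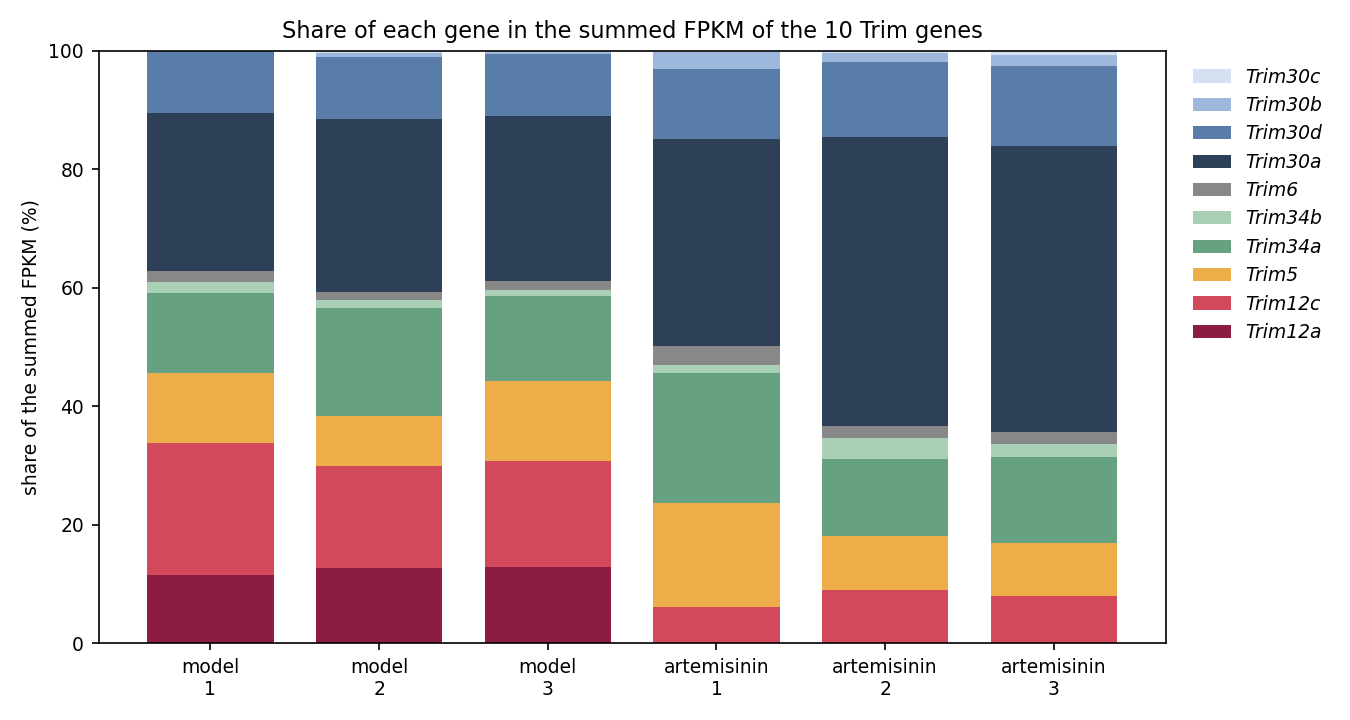
Share of each gene in the summed FPKM of the 10 genes (y axis, percent) in each of the 6 libraries (x axis), as stacked bars. Trim12a and Trim12c together give 29.9% to 33.9% in the model libraries and 6.14% to 8.93% with artemisinin, and Trim30a is the largest part in every library.

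Trim30a (Entrez gene 20128; 104409025 to 104465193, minus strand) had 51.6, 61.4 and 54.2 normalised CPM in model replicates 1 to 3 and 78.0, 77.2 and 94.5 in artemisinin replicates 1 to 3. All 3 artemisinin libraries were above all 3 model libraries, by a log2 fold change of 0.58 ± 0.14 (SE), but edgeR did not call the gene. Trim30d (104470014 to 104507853, minus strand), an antiviral factor with 90.2% coding identity to Trim30a, had 19.6, 21.4 and 19.8 normalised CPM in the model group and 25.6, 19.7 and 25.9 with artemisinin. These groups overlapped through artemisinin replicate 2, and the log2 fold change was 0.23 ± 0.17 (SE). The ratio of Trim30a to Trim30d in FPKM was 2.57 to 2.80 in the model libraries and 2.97 to 3.83 with artemisinin.

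Trim30b (104355398 to 104358646, minus strand), a short member of the Trim30 branch, had 4, 30 and 13 counts in model replicates 1 to 3 and 121, 50 and 88 in artemisinin replicates 1 to 3. The groups did not overlap, but the model values varied 7.63-fold among themselves and the highest artemisinin value was 2.84 times the lowest. The log2 fold change was 2.54 ± 0.78 (SE), not called by edgeR, and moved to 3.39 without model replicate 2. Gm38525, whose RefSeq span contains Trim30b, had 2.09, 3.54 and 3.49 normalised CPM in the model group and 6.75, 6.63 and 8.31 with artemisinin (log2 fold change 1.25 ± 0.32, SE; edgeR adjusted p = 0.0741). Trim30c (104379117 to 104400852, minus strand) had 8, 32 and 13 counts in model replicates 1 to 3 and 14, 24 and 55 in artemisinin replicates 1 to 3, and its groups overlapped. Its log2 fold change of 0.80 ± 0.72 (SE) moved to 0.18 without artemisinin replicate 3 and to 1.51 without model replicate 2.

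Trim34a and Trim34b, identical at 98.2% of their aligned coding bases, are of a type known to be induced by interferon. Their proteins were not compared. Trim34a (104244448 to 104262244, plus strand) had 17.5, 25.5 and 18.7 normalised CPM in the model group and 32.7, 13.8 and 19.1 with artemisinin. Trim34b (104329471 to 104336617, plus strand) had 5.27, 4.19 and 2.80 in the model and 4.46, 7.58 and 5.94 with artemisinin. Both pairs of groups overlapped, and the artemisinin order of the libraries was opposite in the 2 paralogs, with replicate 1 highest for Trim34a and lowest for Trim34b. Trim6 (104218795 to 104235152, plus strand), a ubiquitin ligase of the interferon pathway, had 3.67, 2.96 and 2.96 normalised CPM in the model group and 7.59, 3.55 and 4.17 with artemisinin, overlapping in 1 library of each group. The log2 fold changes were 0.09 ± 0.33, 0.55 ± 0.36 and 0.67 ± 0.38 (SE) for Trim34a, Trim34b and Trim6, and that of Trim34a turned to −0.32 without artemisinin replicate 1. Artemisinin replicate 1 was also the library with the largest share of counts in Scgb1a1, the club cell secretory gene (7.07%, against 0.679% to 2.56% in the other 5), and the part of this in the levels of Trim5, Trim34a and Trim6 was not tested.

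**Figure D4:**
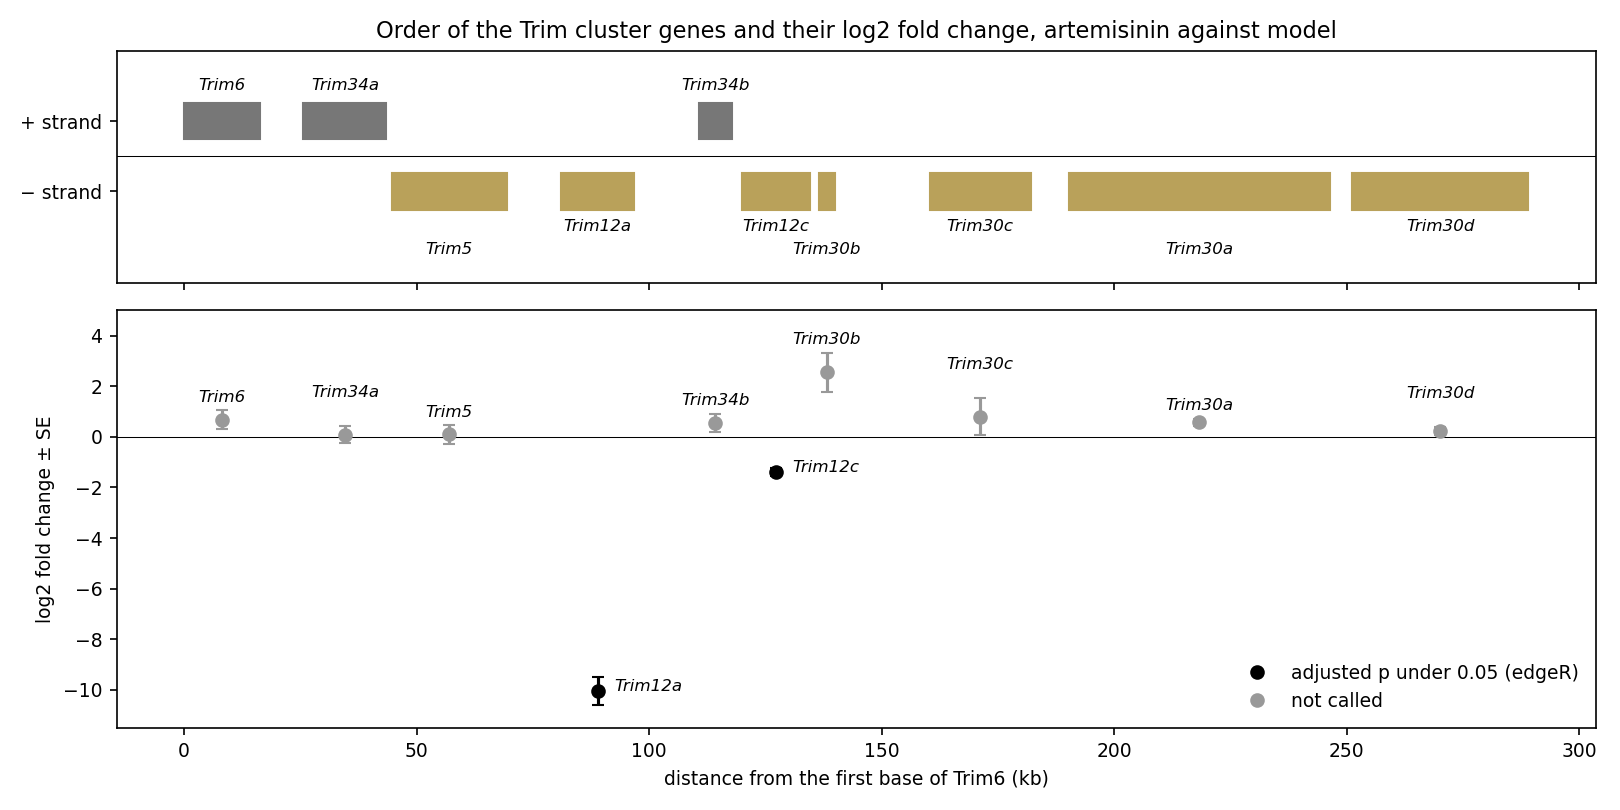
The upper panel shows position and strand of the 10 genes (x axis in kb from the first base of Trim6). The lower panel shows the log2 fold change with its SE (y axis). The fitted value of Trim12a and its SE depend on a small added count and are no bound. The 2 black points, Trim12a and Trim12c, are separated by Trim34b and flanked by Trim5 and Trim30b, all of which are above 0.

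The genes around the cluster were compared to see whether the difference ran along the chromosome. Within 1 Mb the table held 11 further genes, 1 of which, Gm38525, lies inside the cluster. Of the 10 outside it 5 were tested and edgeR called 0, where it called 4.47% of all tested genes. An unadjusted p under 0.05 held for 1 of the 5, and for 24.7% of all tested genes. All 5 log2 fold changes were above 0, with a median of 0.52. DESeq2 called 0 of these 10, and Gm38525 higher. The nearest tested gene on 1 side was Hbb-bs, an adult beta-globin gene, whose normalised CPM ran 305.3, 220.6 and 275.6 over model replicates 1 to 3 and 531.3, 104.3 and 526.9 over artemisinin replicates 1 to 3 (edgeR adjusted p = 0.558). On the other side it was Fam160a2, a dynein adaptor gene, at 35.3 ± 2.44 in the model against 37.7 ± 5.67 under the drug (edgeR adjusted p = 0.724). Hbb-bs ends at position 103827928 and Fam160a2 starts at 105371211, and no gene between either of them and the cluster was tested. The comparison therefore does not cover the stretches next to the cluster. Hbb-bs was called higher without artemisinin replicate 2, as was Cavin3 without artemisinin replicate 3. Within 3 Mb 2 of 50 tested genes, Gm38525 included, were called, Pde2a and Art1, both higher, against 4.47% of all tested genes.

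The wider TRIM family was compared next. Among 51 further Trim genes with counts, 42 were tested, and edgeR called 0, with 10 at an unadjusted p under 0.05, a share close to the 24.7% of all tested genes. Their median log2 fold change was 0.11. The smallest p belonged to Trim62, which ran 37.0, 29.7 and 31.2 normalised CPM over model replicates 1 to 3 and 22.0, 16.6 and 14.9 over artemisinin replicates 1 to 3 (log2 −0.87 ± 0.19, SE; edgeR adjusted p = 0.0509). Trim63, Trim54 and Trim72, which are known from striated muscle, followed with log2 fold changes of 3.46, 4.31 and 3.91 (edgeR adjusted p = 0.0622, 0.0923 and 0.103). The summed level of 6 skeletal muscle markers was 11.0 to 5477 normalised CPM in the artemisinin libraries and 3.93 to 4.62 in the model, highest in artemisinin replicate 2, and its part in these 3 genes was not tested. DESeq2 called 6 of the 50 further Trim genes it fitted, 4 higher and 2 lower, against 14.1% of all genes to which it gave an adjusted p.

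Interferon-stimulated genes were set beside the members because several members are known to respond to interferon. Of 30 such genes in the table, all tested, edgeR called 2 higher and 0 lower, where it called 4.47% of all tested genes. An unadjusted p under 0.05 held for 13, and for 24.7% of all tested genes. The groups did not overlap in 9 genes in the higher and 1 in the lower direction, against 16.3% and 17.3% of all tested genes. Of the 30 genes 26 were above 0, with a median log2 fold change of 0.39 against 0.04 over all tested genes. Oas3, an oligoadenylate synthetase, stood at 5.71 ± 1.49 normalised CPM in the model and rose to 23.6 ± 7.88 (log2 2.05 ± 0.31, SE; edgeR adjusted p = 0.0213). Oasl1, which limits translation of Irf7, rose from 2.09 ± 0.379 to 5.70 ± 0.432 (edgeR adjusted p = 0.0494). Ifi27l2a and Ifitm3 had log2 fold changes of 1.63 and 0.84 without a call (edgeR adjusted p = 0.0519 and 0.0542). The count of 2 was 0 without model replicate 1, 2 or 3, 1 without artemisinin replicate 1 or 3, and 5 without artemisinin replicate 2. Of the 10 members 8 were also above 0, with a median of 0.39 over the 10. Trim12a, by which the cluster was chosen, and Trim12c were below 0.

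Genes of retroviral restriction gave 1 call among 16 tested, higher, with 6 at an unadjusted p under 0.05. Some of them, such as Ifitm3, were also counted with the interferon-stimulated genes, and others with the further Trim genes. The counts of those lists are therefore not independent. For this list and the next 2, the shares over all tested genes were 4.47% called and 24.7% at an unadjusted p under 0.05. DESeq2 called 14.1% of all genes to which it gave an adjusted p. Slfn8, a Schlafen family gene, rose from 3.91, 4.44 and 3.68 normalised CPM in model replicates 1 to 3 to 30.9, 28.4 and 24.6 in artemisinin replicates 1 to 3 (log2 2.80 ± 0.19, SE; edgeR adjusted p = 0.00371), without overlap, and it kept an adjusted p under 0.05 in all 15 alternatives run. Ifitm2 and Ifitm1, which block entry of enveloped viruses, had log2 fold changes of 0.70 and 1.75 (edgeR adjusted p = 0.0643 and 0.0721). Without artemisinin replicate 2 edgeR called 3 of these genes. The partners that carry TRIM5-type signals, the TAK1 complex and the NF-kB pathway, gave 0 calls among 18 tested, with 4 at an unadjusted p under 0.05 and 1 call in DESeq2. Tab3, a TAK1 adaptor and known target of Trim30a, was measured at 29.2 ± 1.87 normalised CPM in the model against 22.5 ± 1.49 under the drug (edgeR adjusted p = 0.158). Tab2, the other known target, went the other way, at 139.8 ± 3.81 in the model against 155.3 ± 9.32 under the drug (edgeR adjusted p = 0.482). The known loss is of protein, which was not measured. Tlr4, Ikbkb and Ripk1 had log2 fold changes of −0.72, 0.51 and −0.40, and without artemisinin replicate 2 edgeR called 2 genes of this list, Tlr4 lower and Ikbkb higher. Interferon sensors and receptors gave 0 calls among 14 tested, with 2 at an unadjusted p under 0.05 and 1 call in DESeq2. Ifngr1, a chain of the interferon gamma receptor, had the smallest p there (log2 0.63 ± 0.14, SE; edgeR adjusted p = 0.0537) and was called higher without artemisinin replicate 1.

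**Figure D5:**
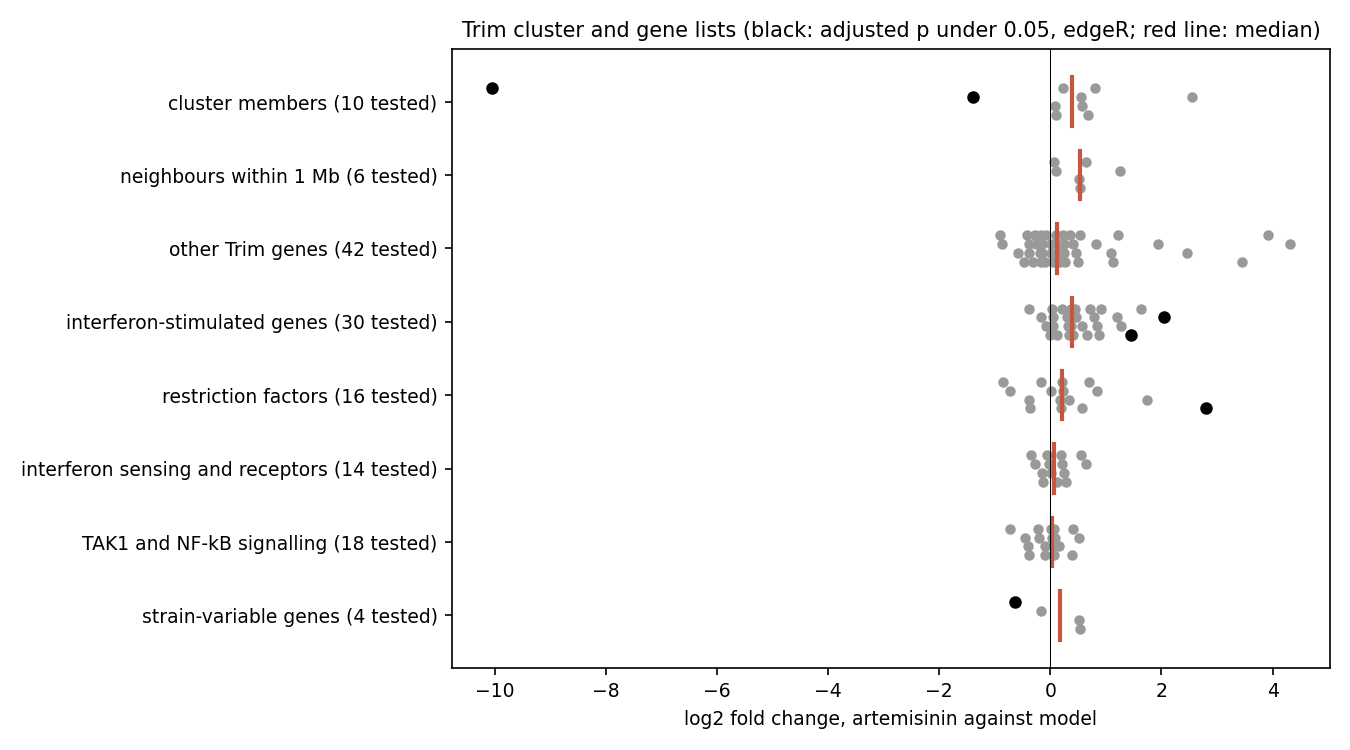
Log2 fold change (x axis) of the tested genes in the Trim cluster and in each comparison list (rows), with called genes in black and the median as a red line. Trim12a lies near −10, while every other gene shown lies between −1.39 and 4.31.

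The genes whose levels ran most like those of Trim12c and Trim30a over the 6 libraries were found by Pearson correlation of log2 CPM, as a description. For Trim12c these were Wwox, Hnrnpll, Cldn2, Zfp764 and Zfp68, with r of 0.997 to 0.998. For Trim30a they were Oas3, Ly6g, Sash3, Epsti1 and Rgs1, with r of 0.993 to 0.996. The 6 points fall into the 2 groups, so that any gene with a steady difference scores high.

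The labels give no strain, so genes known to differ in expression between inbred mouse strains were set beside Trim12a. Of 8 such genes 5 were in the table and 4 were tested. Ifi202b, an interferon-inducible gene that some strains express and others lack, had 515, 4 and 961 counts in model replicates 1 to 3 and 538, 654 and 889 in artemisinin replicates 1 to 3. It was thus near 0 in model replicate 2 alone. Wdfy1, an endosomal adaptor gene, fell from 102.4 ± 10.9 to 65.8 ± 3.72 normalised CPM (edgeR adjusted p = 0.0444), and lost its call without any 1 of the 6 libraries. Nnt and Gbp2b had log2 fold changes of −0.16 ± 0.16 and 0.54 ± 0.39 (SE; edgeR adjusted p = 0.547 and 0.423), and Entpd4 had 1 count in all. The part of genetic background in the Trim12a difference was not tested.

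Markers of cell types that lung tissue can hold were summed beside the Trim levels. All 10 neutrophil markers were above 0 and 6 were called higher, with a summed level of 899.1 to 4936 normalised CPM with artemisinin and 171.1 to 235.5 in the model. Over all tested genes 2.17% were called higher and 2.30% lower. The 12 macrophage and monocyte markers overlapped in sum, at 952.7 to 1638 and 1103 to 1592, with 2 called higher and 1 lower. Sums of T and NK cell markers (139.8 to 248.1 and 126.2 to 156.3) and of B cell markers (149.9 to 282.5 and 87.1 to 196.7) overlapped with 0 calls, and those of 6 dendritic cell markers (59.2 to 83.5 and 39.9 to 51.3) did not, also with 0 calls. Endothelial markers gave 0 calls among 8, and 6 of 10 alveolar type 2 markers were called lower, with sums of 10706 to 27475 with artemisinin and 60539 to 87049 in the model. The sum of 6 keratinocyte markers was 3.74 to 313.9 normalised CPM with artemisinin, with the highest value in artemisinin replicate 2, and 2.48 to 2.89 in the model. No marker on these lists that the table held was at 0 in every library. The alveolar type 2 sum was lower in every artemisinin library than in every model library, as Trim12a and Trim12c were, and the neutrophil sum was higher, as Trim30a and Trim30b were, and the part of these cells in the Trim levels was not tested.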

How the data were processed

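RNA libraries (TruSeq Stranded mRNA kit, per the labels' protocols) of mice with lung cancer were analysed, 6 in all, 3 per group, and the design text lists the 6 samples as mice, so p-values measure the spread between these samples. The authors deposited read counts per gene without normalization and FPKM. Checked over 15462 genes, the FPKM are the counts divided by library total and 1 length per gene (largest relative gap 3.43e-07), so they are not independent evidence. The build was GRCm38, per the submitters' processing notes. Aligner, counter, annotation, strand setting and read length are not given in the sources used here. Counts were tested in edgeR 4.0.16 (R 4.3.3; filterByExpr, TMM, robust glmQLFit, glmQLFTest, Benjamini-Hochberg over 15242 genes, threshold 0.05). Alternatives were other scalings, no filter, no robust estimation, the replicate number as a block, each library left out, DESeq2 1.42.0, and limma 3.58.1 on log2(FPKM + 0.1) or log2(FPKM + 1) with a mean of at least 0.5 FPKM or no filter. A permutation test of 3 against 3 cannot go below p = 0.1. The fits were tested on simulated counts. Members and lists were chosen with earlier results of these data known. Named are all 10 members, up to 4 genes with the smallest p per list, the nearest tested neighbour on each side, the genes with an on and off pattern, and the 5 genes most like Trim12c and Trim30a. Pde2a, Art1, Scgb1a1, Entpd4 and Tab2 were named after their values were seen. Coordinates and promoters are from RefSeq (GRCm38.p6, all 10 genes matched), transcripts from GENCODE M21. Coding sequences and promoter windows were aligned end to end with free end gaps, and identity counts aligned bases without gaps.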

Additional observations from a re-analysis of the deposited data

How the results depend on the processing

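Among the 10 Trim genes, edgeR, DESeq2 and limma called Trim12a lower in all 15 alternatives and Trim12c in 13. The cluster was chosen by the low Trim12a counts with artemisinin, so its calls were bound to recur and nothing is read from them. All these fits rest on the same counts, from which the FPKM also derive, so none is independent evidence. The count of 2 called members was 4 in DESeq2 and 1 to 2 with 1 library left out. With library totals as the scale, the median over all tested genes went from a log2 value of 0.04 to 0.14 and the split of calls from 331 higher and 351 lower to 450 and 332. Trim34a and Trim5 turned to the other sign in 2 and 3 settings, and the other 8 members kept theirs. Over all genes 682 were called, 129 with the replicate block, 2286 in DESeq2 and 17 to 1383 with 1 library left out. The lowest, 17, 118 and 23, came without model replicate 1, 2 or 3. The replicate numbers did not pair the libraries (correlations of −0.004, −0.10 and 0.03 between equal numbers), and with the replicate block 0 interferon-stimulated and 0 strain-variable genes were called, with no other list count moved. For neighbours, Gm38525 included, the count of 0 was 0 to 1 with 1 library left out, 1 in DESeq2 and 2 within 3 Mb. For other Trim genes it was 0 to 1, 1 with DESeq2 size factors and 6 in DESeq2. For interferon-stimulated genes the count of 2 was 0 to 5, 4 with library totals, 1 without a count filter and 8 in DESeq2. For restriction factors the count of 1 was 1 to 3, 3 with library totals, 5 in DESeq2, and 3 and 2 in limma with 0.1 and 1 added. For TAK1 and NF-kB genes 0 became 0 to 2, and 1 in DESeq2. For interferon sensors 0 became 0 to 1, and 1 with library totals, in DESeq2 and in each of the 3 limma fits. For strain-variable genes 1 became 0 with any library left out, with library totals and in each limma fit. The cause of these shifts was not tested. A fit without 1 library also has fewer samples. The depth of 25566173 counts in artemisinin replicate 1, the smallest library, limits how low Trim12a can be read there. Trim30b and Trim30c were lowest in model replicate 1, the largest library, at 4 and 8 counts, so their model levels rest on few counts.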
